A study of Mus musculus with 6 samples.

Results

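The node of Ranvier and paranode assembly genes are 10 genes, *Nfasc*, *Cntn1*, *Cntnap1*, *Cntn2*, *Gldn*, *Nrcam*, *Ank3*, *Ank2*, *Sptbn1* and *Epb41l2*, chosen by symbol among the 24015 genes listed for each library. Of these symbols, 9 were found as written, and *Epb41l2* was found under its older symbol *Epb4.1l2* through the synonyms of RefSeq. RNA was measured in sciatic nerve of mice at postnatal day 14, in 3 control libraries (Rnf40 fl/fl, without Cre) and 3 Rnf40ΔSC libraries (Rnf40 fl/fl with Dhh::Cre, labelled cko). All animals carried the floxed *Rnf40* allele on a background given as mixed 129SvJ/C57Bl/6J in the labels and as C3H with C57Bl/6J in the methods of the study. Each library was made from a pool of nerves, so that differences between single animals were not measured. Dhh::Cre acts in the Schwann cell lineage, and *Rnf40*, which encodes a ubiquitin ligase for histone H2B, remained intact in the other cells of the nerve.

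The control libraries held 1317167, 1992622 and 2468765 counts in replicates 1 to 3, and the Rnf40ΔSC libraries held 2184268, 1459387 and 2186710. Levels are given as normalized counts, that is counts scaled by TMM factors to a common library size. *Rnf40* itself stood at 127, 123 and 138 normalized counts in control libraries and at 87.7, 87.9 and 91.5 in the Rnf40ΔSC libraries. Every Rnf40ΔSC library was below every control library, as the labels state (log2 fold change -0.54, SE 0.14, adjusted p = 0.00243). With scaling by total counts the value was -0.27 and no longer passed the threshold. Replicate 3 of the Rnf40ΔSC libraries stood apart from the other Rnf40ΔSC libraries in skeletal muscle genes, with a level in the range of the controls. The 10 genes of a skeletal muscle list summed to 8366, 6313 and 4665 normalized counts in the control libraries, to 171 and 448 in Rnf40ΔSC replicates 1 and 2, and to 5894 in Rnf40ΔSC replicate 3.

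In myelinated nerve, the node of Ranvier is the short gap between neighbouring myelin segments where sodium channels are clustered, and the paranode is the flanking zone where the loops of the Schwann cell are attached to the axon. Cell adhesion molecules of the immunoglobulin and Caspr families join the membranes of glia and axon there, and ankyrins and spectrins anchor them to the cytoskeleton on either side. Several of these proteins are made by both cells. Since the cell bodies of sciatic axons lie outside the nerve, most neuronal mRNA is not sampled in this tissue.

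Among the 9 members with enough reads for a test, *Cntn1*, *Ank3*, *Nfasc* and *Gldn* were lower in Rnf40ΔSC nerves, *Ank2* was higher, and *Nrcam*, *Cntnap1*, *Sptbn1* and *Epb41l2* did not pass the threshold of an adjusted p of 0.05 (edgeR's quasi-likelihood test over all genes with Benjamini-Hochberg adjustment). The 4 lower members are 44.4% of those tested, beside 16.2% of the 11371 genes tested that were lower by the same rule. The 1 higher member is 11.1%, beside 15.5% of all genes tested. With the further limits of a log2 fold change of 0.8 and a mean of 20 normalized counts, *Cntn1* and *Ank3* were lower, 22.2% of the members tested beside 4.99% of all genes. By these limits 0 of the 9 members were higher in edgeR, with an adjusted or an unadjusted p, and 0 in DESeq2, beside 3.65% of all genes, and *Ank2* reached the limit on fold change (0.82) with total counts. All Rnf40ΔSC libraries lay below all control libraries for 6 members, against 21.6% of all genes, and above them for 1 member, against 22% of all genes. The median log2 fold change was -0.18 over the 9 members (-0.29 without Rnf40ΔSC replicate 3) and 0.00 over all genes tested.

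These counts depend on the scaling. Across all genes, 1841 were lower and 1757 higher with TMM, but 886 were lower and 3740 higher with total counts, which moved the median log2 fold change of all genes to 0.26. On that scale 3 members were lower (*Cntn1*, *Ank3* and *Nfasc*) and 2 higher (*Ank2* and *Sptbn1*), and the members' median was 0.08. From bulk counts alone, fewer cells of a type and less RNA per cell cannot be told apart. By staining, the study found a comparable share of Sox10-positive Schwann cells in both genotypes.

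**Figure D1:**
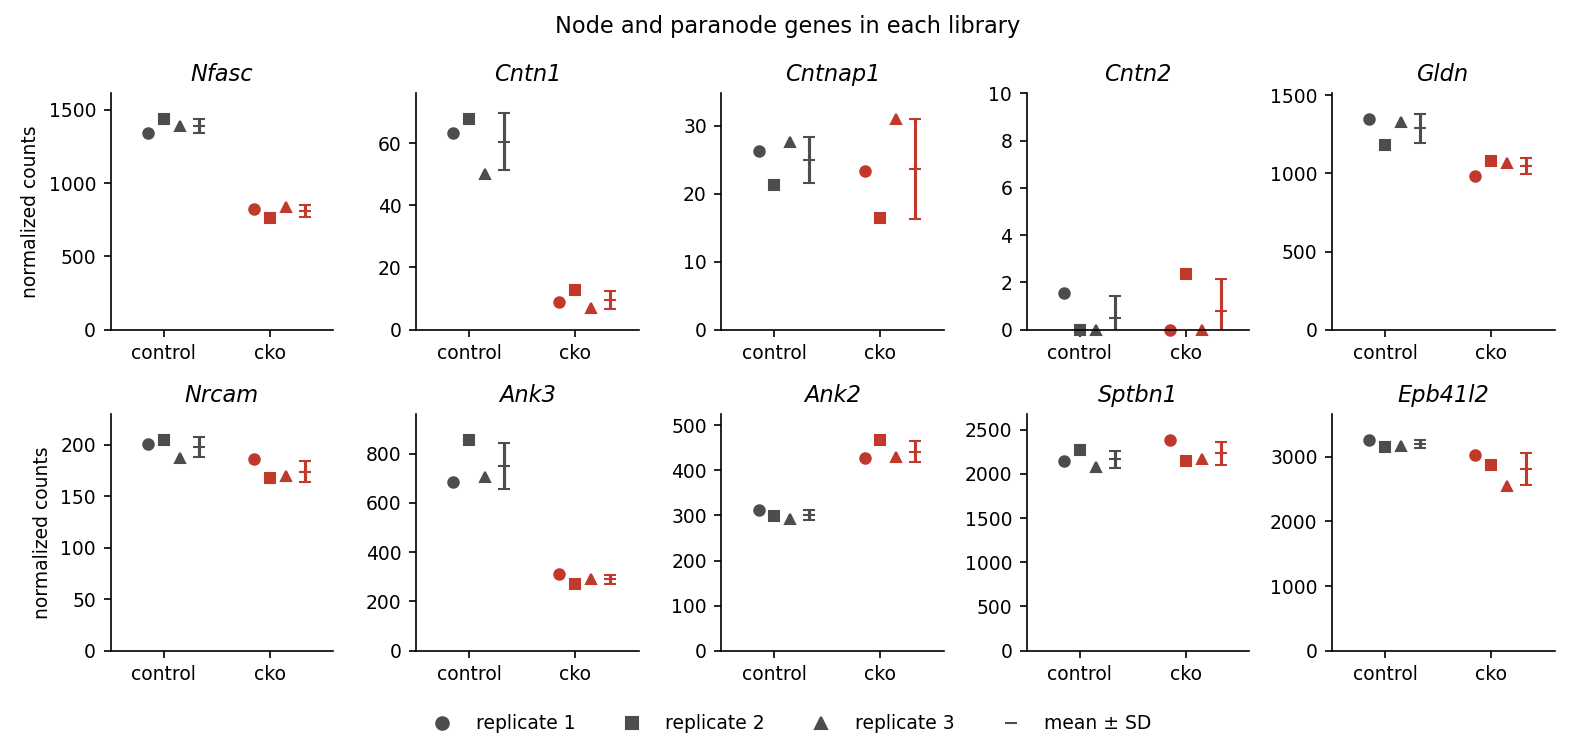
Normalized counts (linear axis from 0) of the 10 genes in each control library and each Rnf40ΔSC (cko) library, with symbols for replicates 1 to 3 and the mean ± SD beside them. The groups are apart for *Nfasc*, *Cntn1*, *Gldn*, *Nrcam*, *Ank3*, *Ank2* and *Epb41l2* and overlap for *Cntnap1*, *Cntn2* and *Sptbn1*.

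At the paranode, neurofascin (*Nfasc*) on the Schwann cell loops binds the axonal complex of contactin 1 (*Cntn1*) and Caspr (*Cntnap1*). *Nfasc* counts were 1344, 1438 and 1389 after normalization in control libraries, and 825, 759 and 838 in the Rnf40ΔSC libraries. The Rnf40ΔSC libraries were close to each other and all below the controls, at 58.1% of the control mean. The log2 fold change was -0.78 (95% confidence interval -0.96 to -0.61, n = 3 per group, adjusted p = 2.94e-09), and with total counts it was -0.52. *Nfasc* encodes a glial isoform of the paranode and a neuronal isoform of the node, which counts per gene cannot separate. Its gene model lies on the minus strand at chr1:134461268-134638374 of mm9, 21750 bases from that of *Cntn2* at chr1:134406002-134439517, and the models do not overlap.

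*Cntn1* (chr15:91881596-92172398, plus strand), which encodes the GPI-anchored partner of Caspr, showed the largest fold change of the 9 tested members. Its normalized counts were 63.3, 67.8 and 50.2 in control libraries, and 8.85, 12.9 and 6.98 in the Rnf40ΔSC libraries, where the reads themselves numbered 11, 11 and 9. Even the highest Rnf40ΔSC library was far below the lowest control. The mean fell to 15.8% of control (log2 fold change -2.68, 95% confidence interval -3.24 to -2.13, adjusted p = 5.44e-10). All 3 control libraries but 2 of the Rnf40ΔSC libraries reached the minimum of 4.79 CPM, counts scaled to library size, used to filter genes. The fold change stayed between -2.90 and -2.28 under the 12 alternatives that gave one, and the gene was not tested where at least 10 counts were asked of every library.

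*Cntnap1* (chr11:101031837-101052038, plus strand) encodes Caspr, the axonal protein that lines the paranodal junction. It had 26.2, 21.2 and 27.6 normalized counts in control libraries, and 23.3, 16.4 and 31 in the Rnf40ΔSC libraries. The groups overlapped, with the highest and the lowest value both among the Rnf40ΔSC libraries. Its log2 fold change of -0.05 had a 95% confidence interval from -0.62 to 0.52 (adjusted p = 0.912), so that a change of that size in either direction was not detectable at this depth. The sign turned with total counts (0.22), without control replicate 3 (0.04) and without Rnf40ΔSC replicate 2 (0.12). *Cntnap1* overlaps *Ccr10* and *Plekhh3* on the opposite strand, and whether the counting used strand is not given in the sources used here, so its counts are uncertain.

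*Cntn2* encodes TAG-1, an adhesion molecule of the juxtaparanode next to the paranode. It had 1 read in control replicate 1, 2 reads in Rnf40ΔSC replicate 2 and 0 in the other libraries. All 6 libraries were at or under a floor of 3 counts, so no fold change is given and a difference was not detectable at this depth.

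The promoters of *Nfasc* and *Cntn1* are shown because these genes of the paranodal complex were called lower, by unlike amounts, while *Cntnap1* was not. The promoter table used here, from RefSeq (GRCm38.p6), matched 8 of the 10 members, with 15 promoters in all. *Cntnap1* and *Ank3* were not matched. The 250 bases before the most upstream listed start are printed. Positions come from an exact match to mm9, where each of the 15 was found once. The *Nfasc* window lies inside the mm9 gene model given above, and the *Cntn1* window ends next to the first base of its model. Capitals would mark, on either strand, an EGR-type motif (GCGTGGGCG or GCGGGGGCG), a SOX-type motif (ACAAAG or ACAATG) or a TATA box (TATAAA). Neither sequence holds any of these motifs in this window.
*Nfasc*, minus strand, chr1:134603904-134604153: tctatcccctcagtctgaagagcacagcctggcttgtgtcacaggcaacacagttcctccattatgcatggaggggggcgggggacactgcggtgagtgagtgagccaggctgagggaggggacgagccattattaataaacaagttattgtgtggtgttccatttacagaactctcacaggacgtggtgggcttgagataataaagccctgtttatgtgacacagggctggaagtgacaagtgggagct
*Cntn1*, plus strand, chr15:91881346-91881595: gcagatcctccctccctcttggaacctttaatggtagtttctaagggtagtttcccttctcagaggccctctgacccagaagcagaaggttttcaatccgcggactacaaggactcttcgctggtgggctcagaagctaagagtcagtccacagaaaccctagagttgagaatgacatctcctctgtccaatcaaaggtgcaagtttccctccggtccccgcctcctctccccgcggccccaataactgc
The G and C share was 52% in the *Nfasc* window and 53.6% in the *Cntn1* window, beside a median of 52.4% over the 32851 promoters of the table. Which of the listed starts is used in nerve cannot be read from counts per gene.

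At the node, gliomedin (*Gldn*, chr9:54134293-54189593, plus strand) is a matrix protein released by the microvilli of Schwann cells, where it binds neurofascin and NrCAM and helps to gather sodium channels. *Gldn* had 1349, 1180 and 1331 normalized counts in control libraries, and 985, 1078 and 1068 in the Rnf40ΔSC libraries. The Rnf40ΔSC libraries were all lower, but the lowest control was near the highest of them. The mean was 81.1% of control (log2 fold change -0.30, SE 0.09, adjusted p = 0.00679). The call was lost with total counts (-0.04), without control replicate 3 (-0.28) and without Rnf40ΔSC replicate 1 (-0.25), and over all alternatives the adjusted p ranged from 0.00358 to 0.774. *Gldn* overlaps an antisense transcript, *1700104A03Rik*, whose reads cannot be told apart without strand. Its promoter, on the plus strand at chr9:54134043-54134292 of mm9, ends next to the first base of the gene model and holds none of the motifs searched.
*Gldn*: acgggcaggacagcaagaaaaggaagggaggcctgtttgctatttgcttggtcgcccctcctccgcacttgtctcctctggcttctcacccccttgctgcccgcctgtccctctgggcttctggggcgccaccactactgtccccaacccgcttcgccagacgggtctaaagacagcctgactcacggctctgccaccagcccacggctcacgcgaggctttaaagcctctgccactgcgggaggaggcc

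NrCAM (*Nrcam*, chr12:45429872-45702951, plus strand), an adhesion molecule of the nodal membrane that binds gliomedin, had 201, 205 and 187 normalized counts in control libraries, and 186, 168 and 170 in the Rnf40ΔSC libraries. The lowest control and the highest Rnf40ΔSC library almost met. The log2 fold change of -0.17 did not pass the threshold (95% confidence interval -0.40 to 0.05, adjusted p = 0.251), and with total counts it was 0.09.

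The scaffold proteins showed opposite changes in the ankyrin pair. Ankyrin-G (*Ank3*, chr10:68996970-69490184, plus strand) is the anchor of nodal sodium channels in the axon, and ankyrin-B (*Ank2*, chr3:126624525-127111949, minus strand) has been placed at paranodes of Schwann cells. *Ank3* had 685, 856 and 703 normalized counts in control libraries, and 310, 272 and 289 in the Rnf40ΔSC libraries. These groups were far apart. The mean was 38.8% of control (log2 fold change -1.36, 95% confidence interval -1.57 to -1.16, adjusted p = 1.07e-13), and over the 13 alternatives the value ranged from -1.42 to -1.10.

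*Ank2* had 313, 298 and 293 normalized counts in control libraries, and 428, 468 and 430 in the Rnf40ΔSC libraries. All Rnf40ΔSC libraries were above all controls. The mean was 147% of control (log2 fold change 0.55, 95% confidence interval 0.36 to 0.75, adjusted p = 2.01e-05), and over the 13 alternatives the value ranged from 0.52 to 0.82. *Ank2* overlaps the transcripts *Gm16958* and *SNORA17* on the other strand, so its counts are uncertain. A ratio of the reads of both genes, chosen after their values were seen and not tested, needs no scaling between libraries. There were 2.19, 2.88 and 2.4 *Ank3* reads per *Ank2* read in control libraries, and 0.724, 0.581 and 0.671 in the Rnf40ΔSC libraries. *Ank3* reads outnumbered *Ank2* reads in every control library and were fewer in every Rnf40ΔSC library.

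The *Ank2* promoter is printed as that of the member that rose. Of its 4 listed starts the most upstream lies beyond the mm9 gene model used here, on the minus strand, and the window at chr3:127202034-127202283 holds a TATA box letter run, a SOX-type ACAAAG and, on the other strand, an EGR-type run read as CGCCCACGC.
*Ank2*: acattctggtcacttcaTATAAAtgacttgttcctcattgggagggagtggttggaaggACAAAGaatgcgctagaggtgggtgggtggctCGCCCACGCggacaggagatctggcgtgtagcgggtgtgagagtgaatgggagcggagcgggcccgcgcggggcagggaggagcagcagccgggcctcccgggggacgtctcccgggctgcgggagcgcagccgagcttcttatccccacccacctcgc
Over all promoters, 12.4% held TATAAA, 16.5% ACAAAG, 10.7% ACAATG, 0.536% GCGTGGGCG and 2.57% GCGGGGGCG on either strand. The *Ank2* start next to the gene model (chr3:127111977-127112226) holds none of the motifs, and another holds ACAATG. A further start of *Cntn1* (chr15:91958309-91958558) holds a SOX-type match and a TATA box letter run, and both starts of *Sptbn1* hold SOX-type matches. These matches describe letters only.

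Beta-II spectrin (*Sptbn1*, chr11:29999395-30168175, minus strand), a cytoskeletal partner of ankyrin-B at the paranode, had 2150, 2270 and 2082 normalized counts in control libraries, and 2387, 2147 and 2165 in the Rnf40ΔSC libraries. The groups overlapped. Its log2 fold change was 0.04 (95% confidence interval -0.12 to 0.21, adjusted p = 0.725). With total counts the value was 0.31 and passed the threshold, near the 0.26 by which the median of all genes moved on that scale. *Sptbn1* also overlaps transcripts on the opposite strand.

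*Epb41l2* (chr10:25079604-25243320, plus strand) encodes a membrane skeleton protein of Schwann cells that takes part in placing internodal and paranodal adhesion molecules. Its normalized counts were 3263, 3153 and 3166 in control libraries, and 3023, 2879 and 2542 in the Rnf40ΔSC libraries. The Rnf40ΔSC libraries were all lower and more spread than the controls. The log2 fold change of -0.18 (95% confidence interval -0.34 to -0.02) had an adjusted p of 0.0739. It was -0.10 without Rnf40ΔSC replicate 3 and 0.08 with total counts.

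**Figure D2:**
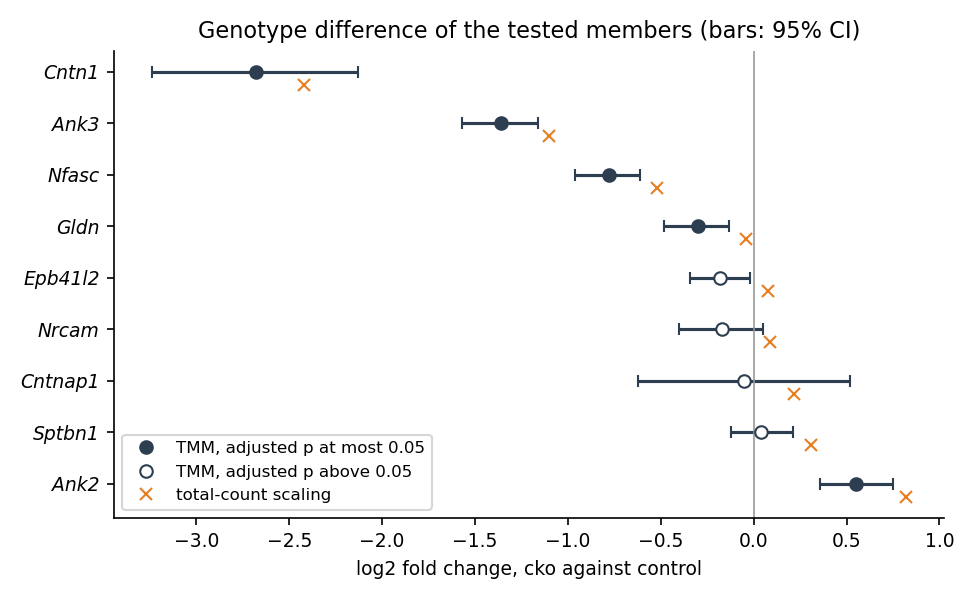
Log2 fold change (Rnf40ΔSC against control, n = 3 per group) of the 9 tested members with 95% confidence intervals under TMM scaling; filled circles have an adjusted p at or below 0.05. Crosses give the value with total-count scaling, which lies to the right for every member and has another sign than the TMM value for *Nrcam*, *Cntnap1* and *Epb41l2*.

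Per length, *Epb41l2* was the most abundant member in both groups. Its level in RPKM, reads per kilobase of the exon union scaled to the TMM library size, was 317 ± 5.95 in control and 279 ± 24.5 in Rnf40ΔSC libraries (SD, n = 3). In the control libraries *Gldn* followed at 146 ± 10.6 RPKM, then *Nfasc* at 71 ± 2.39 and *Sptbn1* at 65.7 ± 2.88, whose libraries overlapped. *Ank3* came next at 37.3 ± 4.68 RPKM, ahead of *Nrcam* at 12.6 ± 0.627 and *Ank2* at 9.26 ± 0.33. *Cntn1* and *Cntnap1* were low, at 3.39 ± 0.513 and 2.26 ± 0.305 RPKM, and every neighbouring pair in this order other than *Nfasc* and *Sptbn1* was apart in all libraries.

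In the Rnf40ΔSC libraries the order was partly different. *Sptbn1* (67.6 ± 4.05 RPKM) stood above *Nfasc* (41.2 ± 2.15 RPKM). *Ank3* (14.5 ± 0.95 RPKM) and *Ank2* (13.6 ± 0.686 RPKM) overlapped, and *Ank2* was now above *Nrcam* (11.1 ± 0.638 RPKM). *Cntnap1* (2.13 ± 0.66 RPKM) was above *Cntn1* (0.538 ± 0.17 RPKM). With the length of the longest transcript instead, *Sptbn1* stood above *Nfasc* in the control libraries as well (126 against 75.3 RPKM), since its exon union of 17492 bases is much longer than its longest transcript of 9107 bases. On that length *Sptbn1* was also above *Gldn* in all Rnf40ΔSC libraries (130 against 119 RPKM), and *Ank2* (16.5 RPKM) and *Ank3* (16.2 RPKM) overlapped there in the reverse order.

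**Figure D3:**
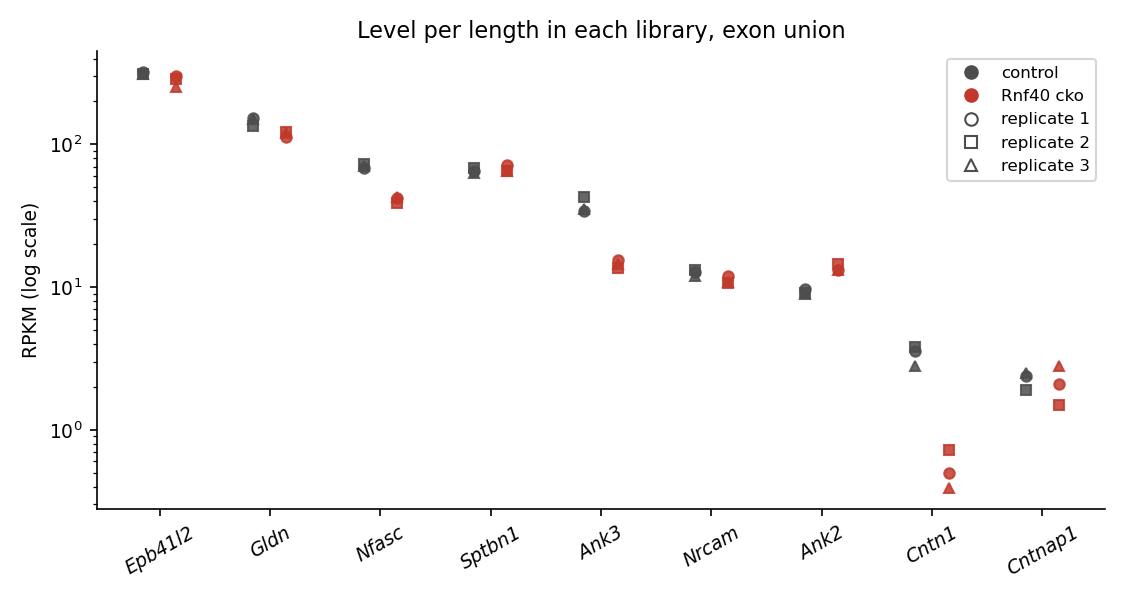
RPKM (log axis) of 9 members in each library, ordered by the control mean; *Cntn2*, with reads in 2 libraries, is left out. Control libraries are grey and Rnf40ΔSC libraries red, and the levels run from about those of *Epb41l2* (317 in control) down to *Cntn1* in the Rnf40ΔSC libraries (0.538).

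To set the members against a gene of the Schwann cell itself, each was divided by *Sox10*, a transcription factor of the lineage, within the same library. *Sox10* had 931, 1025 and 1053 normalized counts in control libraries, and 612, 558 and 575 in the Rnf40ΔSC libraries. It was lower in all Rnf40ΔSC libraries (log2 fold change -0.79, adjusted p = 8.87e-09), with -0.52 by total counts. The Schwann cell markers *S100b* (-0.89) and *Erbb3* (-0.60) were lower too. Other Schwann cell markers were higher, among them *Ncam1* (1.16) and *Foxd3* (0.90), named after their values were seen. The direction of a ratio therefore depends on the marker taken as denominator.

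Relative to *Sox10*, *Nfasc* was level between the groups. Its log2 ratio was 0.53, 0.49 and 0.40 in control libraries, and 0.43, 0.44 and 0.54 in the Rnf40ΔSC libraries, with a mean difference of 0.00 (exact permutation p = 1, two-sided). *Cntn1* was lower relative to *Sox10* by a difference of -1.85, and *Ank3* by -0.58, with no overlap of the groups. The other 6 members were higher relative to *Sox10* without overlap, from a difference of 0.48 for *Gldn*, 0.60 for *Nrcam* and *Epb41l2* and 0.66 for *Cntnap1* to 0.83 for *Sptbn1* and 1.34 for *Ank2*. The *Cntnap1* difference was 0.44 without Rnf40ΔSC replicate 3 and 0.86 without Rnf40ΔSC replicate 2. The 6 members higher relative to *Sox10* had log2 fold changes below those of *Ncam1* (1.16) and *Foxd3* (0.90). The highest of them was 0.55 for *Ank2*. *Egr2*, another Schwann cell marker that was higher and likewise named after its value was seen, had 0.36. That is below *Ank2* and above the other members higher relative to *Sox10*. The direction of these ratios is therefore not independent of *Sox10*, a marker that fell, and for *Ank2* markers that rose lie on both sides. No ratio to a marker that rose was taken.

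In the 8 ratios whose groups did not overlap, the exact two-sided permutation p was 0.1, the smallest that 3 against 3 libraries allow, and 0.113 after adjustment over all 9 ratios, so none could pass the threshold. These ratios do not show which gene of a pair changed.

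**Figure D4:**
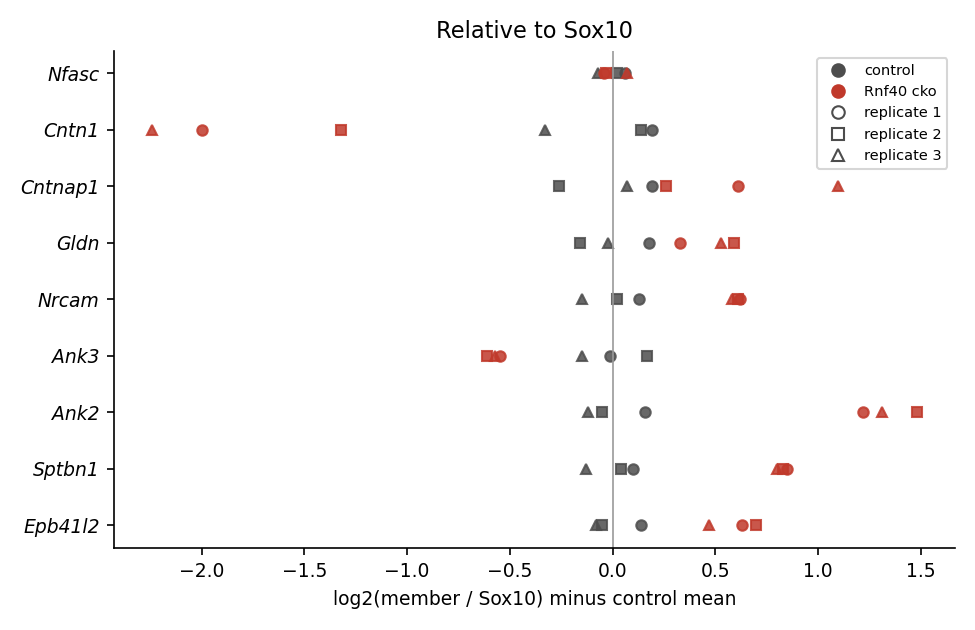
Log2 ratio of each tested member to *Sox10* in each library, shown as the difference from the control mean, with control libraries in grey and Rnf40ΔSC libraries in red. *Nfasc* overlaps, *Cntn1* and *Ank3* lie below the controls, and the others lie above.

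Lists of other genes of the node and its surroundings were examined in the same test, in which 16.2% of all genes were lower and 15.5% higher. Of 14 nodal channel genes 5 were tested, with 1 lower and 1 higher (median log2 fold change -0.08, from -0.25 to -0.03 over the left-out libraries, 0.19 with total counts and 0.21 with no filter, where 12 were tested). *Scn8a*, the main sodium channel of mature nodes, had 17, 27.5 and 29.3 normalized counts in control libraries, and 81.3, 78.5 and 80.7 in the Rnf40ΔSC libraries. It was higher in all of the latter (log2 fold change 1.65, SE 0.21, adjusted p = 6.07e-08). The most abundant of this list, *Scn3b*, had -0.27 (adjusted p = 0.0203), a call lost with total counts (-0.01), without control replicate 3 (-0.27) and without Rnf40ΔSC replicate 2 (-0.24). *Kcnk2*, a potassium channel gene, did not pass (-0.07, adjusted p = 0.819), and its sign turned with total counts (0.19), without control replicate 1 (0.16) and without Rnf40ΔSC replicate 3 (0.01).

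Of 14 juxtaparanode genes 9 were tested, with 3 lower and 1 higher (median -0.01, from -0.08 to 0.03 over the left-out libraries). With total counts 1 was lower and 2 were higher (median 0.26), and without control replicate 2 only 1 was lower. The potassium channel gene *Kcna1* was higher (log2 fold change 0.67, adjusted p = 9.19e-09) at 3401, 3317 and 3317 normalized counts against 2020, 2230 and 2061 in the control libraries. Its partner *Kcna2* had -0.32 (adjusted p = 0.00792), which lost the call with total counts (-0.05) and without control replicate 2 (-0.24). *Adam22*, which encodes a receptor that recruits scaffolds there, was lower (log2 fold change -0.93, adjusted p = 0.000101).

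The list of nodal matrix and microvilli had 15 genes, all tested, with 3 lower and 5 higher (median -0.02), and with total counts 1 was lower and 8 were higher (median 0.25). Without control replicate 3, 3 were higher. Ezrin (*Ezr*), which links the membrane of Schwann cell microvilli to actin, had 265, 263 and 242 normalized counts in control libraries, and 677, 759 and 617 in the Rnf40ΔSC libraries. It was higher in every one of these (log2 fold change 1.42, SE 0.10, adjusted p = 3.46e-14). The syndecan gene *Sdc4* was higher as well (1.06, adjusted p = 4.62e-09). The abundant dystroglycan gene *Dag1* had -0.23 (adjusted p = 0.0152). That call was lost with total counts (0.04, where the sign turned), without control replicate 2 (-0.21) or 3 (-0.23) and without Rnf40ΔSC replicate 1 (-0.20) or 2 (-0.19). The perlecan gene *Hspg2* did not pass (0.03, adjusted p = 0.823), but with total counts it was 0.30 and passed, and its sign turned without control replicate 1 (-0.02) or Rnf40ΔSC replicate 3 (-0.06).

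Among 13 relatives of the scaffold genes 12 had a row and 9 were tested, with 3 lower and 1 higher (median -0.27, from -0.36 to -0.13 over the left-out libraries). With total counts 2 were lower and 3 higher (median 0.00), and with at least 10 counts asked of every library 7 were tested, with 2 lower and 1 higher (median 0.06). DESeq2 gave 2 lower. Beta-I spectrin (*Sptb*) had 656, 731 and 605 normalized counts in control libraries, and 304, 286 and 313 in the Rnf40ΔSC libraries. It was lower in all of these (log2 fold change -1.14, SE 0.10, adjusted p = 5.48e-12). The alpha-II spectrin gene *Sptan1* did not pass (0.04, adjusted p = 0.752) except with total counts (0.31). *Epb4.1l4a* was higher (0.82, adjusted p = 0.000107). *Epb4.1l5* was lower (-1.17, adjusted p = 0.0159), with 8, 25 and 24 reads in control libraries and 14, 9 and 7 in the Rnf40ΔSC libraries. All 3 control libraries but 2 of the Rnf40ΔSC libraries reached the count minimum. The call was lost with total counts (-0.90) and with DESeq2 (-1.15, or -0.86 with a prior). It was also lost without control replicate 2 (-0.92) or 3 (-1.17) or Rnf40ΔSC replicate 3 (-0.87).

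Of 12 relatives of the adhesion genes 3 were tested. Of the 2 that reached the count minimum in both groups, 1 was lower and 1 higher. The L1 family pair went opposite ways. *L1cam* had 198, 252 and 220 normalized counts in control libraries, and 64.4, 63.3 and 56.6 in the Rnf40ΔSC libraries, and *Chl1* had 128, 122 and 139 in control libraries, and 261, 285 and 237 in the Rnf40ΔSC libraries. The groups were apart for both, with *L1cam* lower (log2 fold change -1.87, adjusted p = 7.87e-14) and *Chl1* higher (1.00, adjusted p = 9.22e-09). The contactin gene *Cntn6* had 3, 2 and 2 reads in control libraries, and 17, 10 and 13 in the Rnf40ΔSC libraries. It reached the count minimum only in the Rnf40ΔSC libraries, and the controls were at or under the floor of 3 counts, so neither a fold change nor a call is given for it.

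**Figure D5:**
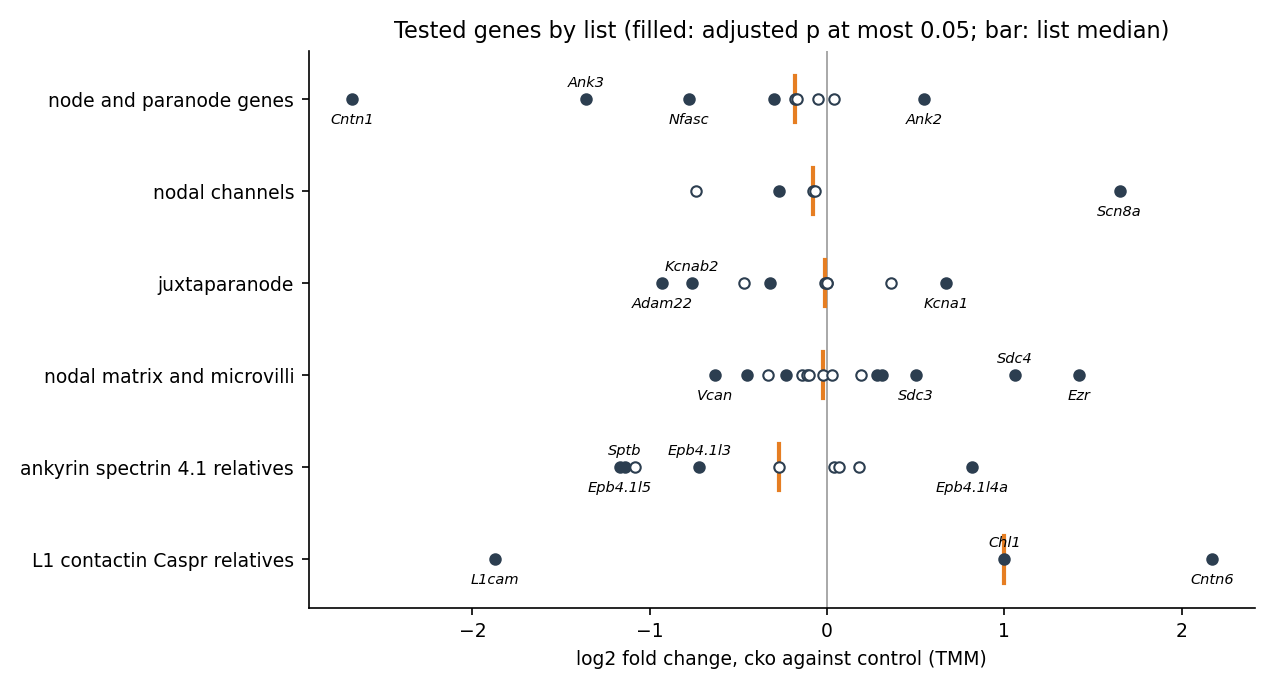
Log2 fold change (Rnf40ΔSC against control, TMM scaling) of the tested genes in each list, filled where the adjusted p is at or below 0.05, with the median of the list as a bar. *Cntn1* and *Ank3* lie farthest left among the members, and *Scn8a* (1.65) and *Ezr* (1.42) are high in their lists. The fitted value of *Cntn6*, which enters the bar of its list at 1.00, rests on 3, 2 and 2 control reads, so its filled point is not read as a call. With at least 10 counts asked of every library, *Cntn6* is not tested and the median of its list is -0.42.

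Markers of the cell types in the nerve moved with genotype too, and their part in the members' differences was not tested. In a list of 7 Schwann cell markers 3 were lower and 4 higher (2 higher without control replicate 3). The list is not complete, so neither this count nor the sum of the list stands for Schwann cell markers in general. One of the higher, *Gfap*, named after its values were seen, had 1, 5 and 0 reads in control libraries and 12, 9 and 17 in the Rnf40ΔSC libraries, and reached the count minimum only in the latter, so that its call is not read. The sum of the 7 genes, of which *Sox10* made up 27.7%, was 2795, 3189 and 3040 normalized counts in control libraries, and 2703, 2709 and 2752 in the Rnf40ΔSC libraries. Of 10 neuron markers 4 were tested, with 1 higher and 3 not past the threshold. The higher one, *Snap25*, likewise named after its values were seen, had 3, 6 and 8 reads in control libraries and 23, 13 and 23 in the Rnf40ΔSC libraries. It too reached the minimum only in the latter, so its call is not read, and without Rnf40ΔSC replicate 1 another of the list was lower. The sum of the neuron markers was 72.5, 84.7 and 77.8 in control libraries, and 99.8, 79.7 and 67.5 in the Rnf40ΔSC libraries, so the groups overlapped at a low level. *Nefh*, the most abundant neuron marker, had 34, 25.4 and 26.8 normalized counts in control libraries, and 20.1, 19.9 and 16.3 in the Rnf40ΔSC libraries. It was lower in all of the latter but did not pass in edgeR (log2 fold change -0.59, adjusted p = 0.105). *Stmn2* (-0.72, adjusted p = 0.142) and *Nefm* (0.34, adjusted p = 0.599) did not pass either. The defining marker *Rbfox3* had at most 3 reads in every library.

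Of the other lists, 4 of 5 fibroblast markers were lower, with sums of 74488, 72928 and 78916 in control libraries, and 57915, 55840 and 54824 in the Rnf40ΔSC libraries, mostly *Col3a1*. All 4 genes of the perineurial list were lower, led by *Itgb4* (sums 1625, 1872 and 1872 against 1028, 857 and 952). The study lists *Itgb4* among genes with both reduced H2Bub1 peaks and lower expression in Rnf40ΔSC nerves. *Itgb4*, and the sum it leads, are therefore not read as perineurial alone. The log2 fold changes were -1.69 for *Itgb4*, -0.66 for *Slc2a1*, -0.28 for *Cldn1* and -1.22 for *Msln*. Endothelial markers were lower for 3 of 5, led by *Cdh5* (sums 1215, 1103 and 1258 against 793, 805 and 958), and pericyte markers for 2 of 5 (4 without Rnf40ΔSC replicate 3), led by *Pdgfrb* (sums 1678, 1240 and 1400 against 880, 869 and 1130). Macrophage markers were lower for 4 of the 5 tested of 6, led by *Csf1r* (sums 576, 485 and 570 against 369, 353 and 371), where *Aif1* had at most 3 reads in every library. By staining for the protein Iba1, the study counted more macrophages in Rnf40ΔSC nerves at this age. The lower RNA of these markers is therefore not read as fewer macrophages. Adipocyte markers were lower for 2 of 5 (1 without control replicate 3), *Adipoq* and *Plin1*. The sums of the 5 overlapped between the groups (1880, 1426 and 2431 against 1589, 1427 and 1115). They were mostly *Fabp4*, which did not pass in edgeR (-0.43, adjusted p = 0.33). With total counts 3 perineurial and 2 macrophage markers were lower, with 1 each of the fibroblast, pericyte and adipocyte markers, while 1 fibroblast marker was higher, and 0 endothelial markers by edgeR (2 at an unadjusted p below 0.05, and 3 by DESeq2 with its own scaling). With all libraries, 0 of the 10 skeletal muscle markers, led by *Myh4*, passed in edgeR or DESeq2, and 0 had an unadjusted p below 0.05, whereas 9 were lower without Rnf40ΔSC replicate 3. Without that library the members gave the same counts, 4 lower and 1 higher. No listed marker was at 0 in every library.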

How the data were processed

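Per the methods of the study, the authors aligned reads to mm9 with TopHat and counted unique reads per gene with HTSeq, and the deposited values are these raw counts. The submitters' notes name Bowtie2 2.1.0, HTSeq, DESeq2 and the builds mm10 and mm9. The labels and the methods name different library kits, and the kit of the methods is a directional one. Gene annotation and the strand setting of the counting are not given in the sources used here. No row lacked a gene. Genes were filtered with filterByExpr, scaled by TMM and tested with edgeR 4.0.16 in R 4.3.3, with Benjamini-Hochberg adjustment over 11371 genes. RPKM values used GENCODE vM1 exon lengths. Within-library ratios took 0.5 added to each count. Intervals and floors cover counting and replicate error of these libraries only. The test was also run on counts simulated from values fitted to these libraries, which cannot show whether its model suits them. Alternatives were other scalings, DESeq2 1.42.0, other filters, a replicate block and leaving out each library. The named genes include all members. In the node lists, genes with an adjusted p at or below 0.05 and a log2 fold change of at least 0.8 were named. So were the 2 most abundant genes of each. In each cell type list the most abundant marker was named, with some further markers beyond this rule. The members and lists were chosen with earlier results of these data known, and the promoter motifs and the ankyrin ratio after seeing the data. Some genes of the nodal channel and Schwann cell marker lists are not reported here, and the counts, medians and sums of these lists leave them out.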

Additional observations from a re-analysis of the deposited data

How the results depend on the processing

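The direction and call of *Nfasc*, *Cntn1*, *Ank3* and *Ank2* held under the other scalings, DESeq2, the other filters, the replicate block and each left-out library, where they were tested. Total-count scaling gave 886 lower and 3740 higher genes, 2 higher members, and positive values for *Nrcam* (0.09), *Cntnap1* (0.22) and *Epb41l2* (0.08). The members' changes relative to the median of all genes on that scale were -0.30 for *Gldn* and 0.04 for *Sptbn1*. *Cntnap1* also turned positive without control replicate 3 (0.04) and without Rnf40ΔSC replicate 2 (0.12), within a range from -0.29 to 0.12 over the left-out libraries. With the limits on fold change and mean, 567 genes were lower and 415 higher, and 2 members were lower and 0 higher, since *Nfasc* (-0.78), *Gldn* (-0.30) and *Ank2* (0.55) are within 0.8. Leaving out each library gave 1442 to 1992 lower and 1294 to 1916 higher genes, 3 to 4 lower members and 1 higher member. With the longest transcript, the control and Rnf40ΔSC levels were 75.3 and 43.7 RPKM for *Nfasc*, 13.8 and 12.2 for *Nrcam*, 5.65 and 0.895 for *Cntn1*, 11.2 and 16.5 for *Ank2*, 126 and 130 for *Sptbn1* and 367 and 324 for *Epb41l2*, and 16.2 for *Ank3* in Rnf40ΔSC. With the sum of *Sox10*, *S100b* and *Erbb3* in place of *Sox10*, the difference in log2 ratio was 0.67 for *Cntnap1* and 0.01 for *Nfasc*, but all 3 of these markers were lower, so close values follow from that choice. The cause of these shifts was not tested. With a replicate block, 1837 genes were lower and 1727 higher, with 4 lower members and 1 higher; same-numbered libraries did not deviate together (correlations -0.095, -0.015 and -0.062), so the numbers do not pair the samples.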
